A study of Mus musculus with 28 samples.

Results

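The 10 genes described here encode AP-1 and CEBP factors: Fos, Fosb, Fosl2, Jun, Junb, Jund, Atf3, Cebpa, Cebpb and Cebpd, out of 21938 protein-coding genes in the annotation. They were chosen by name, and the regions assigned to them are the accessible regions that overlap the gene or the 20000 bp to each side of it (GENCODE M21, mm10). By this rule 46 of 46189 control regions and 54 of 64883 db/db regions belonged to the members, which form 55 loci once overlapping regions of both lists are joined. Accessibility was measured by omni-ATAC-seq, in which a transposase cuts open chromatin and leaves sequencing adapters, on Müller cells, the main glial cells of the retina.

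Both groups were 6 months old. Db/db mice carry a mutated leptin receptor gene (Lepr) and develop type 2 diabetes, and the control samples are labelled WT, although the methods of the study name both wild-type and heterozygous db/+ animals as controls. Mice of both sexes were used. Müller cells were taken as the CD29+ fraction of a magnetic sort after microglia (CD11b+) and vascular cells (CD31+) had been removed, and this fraction can hold some astrocytes. One list of peaks per genotype was analysed, deposited with the first of 2 samples of each genotype, so that differences between the lists cannot be set against a replicate and come without p-values.

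AP-1 is a dimer of basic leucine zipper proteins, in which a Jun protein pairs with another Jun, a Fos protein or an ATF protein. CEBP proteins form dimers through a zipper of the same kind and bind their own palindrome. Several of these genes are immediate early genes, switched on within minutes by MAP kinases and serum response factor without new protein synthesis, and the glucocorticoid receptor is known to meet AP-1 and CEBP factors at shared regulatory regions.

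The promoters of 6 members are shown as the 250 bases before the RefSeq start site (GRCm38.p6), written 5′ to 3′ on the strand of the gene. Fosb and Atf3 are shown since their promoter regions ranked 10 points or more lower in the db/db list, Fos and Cebpa for their TATA boxes, Jun for its AP-1 variant, and Cebpb as the promoter richest in G and C. Capitals mark every match, on either strand, to the strings searched.
Fos, chr12:85473640-85473889, plus strand: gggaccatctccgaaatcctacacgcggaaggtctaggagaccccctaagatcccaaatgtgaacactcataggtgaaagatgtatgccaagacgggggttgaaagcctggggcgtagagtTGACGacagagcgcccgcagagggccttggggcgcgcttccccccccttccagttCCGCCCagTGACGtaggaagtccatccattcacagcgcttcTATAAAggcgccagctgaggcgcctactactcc
Fosb, chr7:19310046-19310295, minus strand: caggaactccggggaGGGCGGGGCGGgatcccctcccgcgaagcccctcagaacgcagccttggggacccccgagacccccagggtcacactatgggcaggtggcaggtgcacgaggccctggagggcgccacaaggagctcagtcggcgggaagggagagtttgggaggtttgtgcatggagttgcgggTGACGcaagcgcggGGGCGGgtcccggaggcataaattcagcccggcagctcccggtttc
Jun, chr4:95052223-95052472, minus strand: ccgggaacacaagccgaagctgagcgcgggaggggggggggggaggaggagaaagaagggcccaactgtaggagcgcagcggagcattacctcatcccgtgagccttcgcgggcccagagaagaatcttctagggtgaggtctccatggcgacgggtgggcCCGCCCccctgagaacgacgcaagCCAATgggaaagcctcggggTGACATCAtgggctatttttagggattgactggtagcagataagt
Atf3, chr1:191183334-191183583, minus strand: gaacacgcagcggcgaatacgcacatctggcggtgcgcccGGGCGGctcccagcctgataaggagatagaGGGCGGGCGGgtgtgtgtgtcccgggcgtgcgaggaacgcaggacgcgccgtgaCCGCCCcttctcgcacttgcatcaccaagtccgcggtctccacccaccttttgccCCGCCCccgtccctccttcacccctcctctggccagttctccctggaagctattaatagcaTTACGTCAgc
Cebpa, chr7:35119043-35119292, plus strand: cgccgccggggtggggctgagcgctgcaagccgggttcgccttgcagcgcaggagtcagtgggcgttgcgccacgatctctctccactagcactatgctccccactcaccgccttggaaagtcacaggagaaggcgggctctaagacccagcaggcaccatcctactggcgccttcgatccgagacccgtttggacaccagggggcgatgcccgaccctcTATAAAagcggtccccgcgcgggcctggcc
Cebpb, chr2:167688665-167688914, plus strand: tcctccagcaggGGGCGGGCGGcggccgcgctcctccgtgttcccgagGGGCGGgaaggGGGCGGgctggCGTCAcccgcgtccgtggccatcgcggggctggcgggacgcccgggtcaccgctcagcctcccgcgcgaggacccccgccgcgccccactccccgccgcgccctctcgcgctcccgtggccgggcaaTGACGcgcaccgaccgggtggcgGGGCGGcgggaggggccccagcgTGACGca
All 250 bases of each lay inside an accessible region of both lists.

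The table of promoters held 9 of the 10 members. None of the 9 windows, which run from 250 bases before to 50 after the start, held the AP-1 site TGACTCA, the CRE TGACGTCA, the CEBP palindrome TTGCGCAA, the CArG box, the E-box CACGTG or the glucocorticoid receptor half-site AGAACA. Among all 32851 promoters in the table these strings were present in 5.20%, 1.79%, 0.183%, 1.63%, 7.15% and 19.0% of windows, respectively. The AP-1 site, the CRE, the CEBP palindrome, the CArG box and the E-box were thus present in few promoters of any kind, whereas the receptor half-site was more frequent than the TATA box. Sequence outside the windows was not searched, so a site farther from the start would not have been counted.

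The TATA box TATAAA was present in 4 of 9 member windows, against 13.6% of all promoters. In Fos and Cebpa it began 33 and 30 bases before the start site, and in Junb and Cebpb it lay at or after the RefSeq start. The GC box GGGCGG was found in 6 of 9 (Fos, Fosb, Fosl2, Jun, Atf3 and Cebpb), against 35.7%, and the CCAAT box in 3 of 9 (Jun, Junb and Atf3), against 37.4%. The first part of the CRE, TGACG, was searched after the sequences had been seen, and 5 of 9 held it (Fos, Fosb, Junb, Atf3 and Cebpb), against 20.8%. Jun held the AP-1 variant TGACATCA, present in 3.62% of promoters, 45 bases before its start, and Atf3 held the CRE variant TTACGTCA, present in 0.499%, 10 bases before its start; these variants were also chosen afterwards, and TTACGTCA overlaps the TGACG match of Atf3 on the other strand. The member windows had a median G and C content of 64.7% (46.7% to 80.7%), against 52.7% over all promoters, with Jund lowest and Cebpb highest. The RefSeq start of Jund lay 1210 bp upstream of its annotated GENCODE start and that of Fosl2 lay 299 bp from one, inside an annotated exon, so that neither window overlapped the accessible promoter region.

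Every region carries a signal, read here as fold enrichment, and a −log10 q value. Since it is not stated what these values were scaled to, a region was placed by its percentile within its own list, where 100 is the highest. The lists differ in length, and the 20324 regions absent from the control list were weak (median signal percentile 23.5). Shared regions therefore stood 8.53 points higher in the db/db list at the median when each list was ranked as a whole. To compare the lists, the signal was ranked again among the 43519 pairs in which each region overlaps exactly 1 region of the opposite list, and the rank change is the db/db percentile minus the control percentile in that ranking. Over all such pairs it had a median of 0.09 points and an SD of 10.63 points, and 10 points was taken as the size to count. In what follows, percentiles refer to the whole list, control first, and coordinates to the control region unless only the db/db list held one.

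The promoter regions of AP-1 and CEBP genes were open in both genotypes. All 10 members had at least 1 region within 1000 bp of a transcription start site (TSS), and these made up 14 loci, every one present in both lists. Of all regions near a protein-coding TSS, 1.69% in the control list and 12.9% in the db/db list were found in that list only. Of all 21938 protein-coding genes, 59.4% had a promoter region in the control list and 62.5% in the db/db list. A count of 0 in 14 has a 95% Wilson interval of 0% to 21.5%, counting error only, which holds both background shares.

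These promoters ranked low by signal, while by −log10 q they stood near promoters in general. The 14 loci had a median signal percentile of 25.6 in the control list (1.33 to 59.0) and 36.2 in the db/db list (6.31 to 66.2), while regions near any protein-coding TSS had medians of 69.4 and 70.3. By −log10 q, the same loci had medians of 81.2 and 81.1, against 77.8 and 78.1. Where 1 region per gene was taken, it was the one of highest signal near any annotated TSS of the gene. At Fosb and Junb this was the promoter region farther inside the gene. With 1 region per gene, all 10 members lay below the signal median of protein-coding promoters in both lists (medians 35.0 and 46.2, against 78.0 and 80.7). By −log10 q the medians of these regions were 84.6 and 87.8, against 83.5 and 85.2 for all protein-coding genes. The 10 Müller cell markers showed the same order, with medians of 34.3 and 49.8 by signal and 83.1 and 89.5 by −log10 q. Low signal was not particular to members and Müller cell markers. Rod, vascular and astrocyte markers and other immediate early genes also had signal medians below those of protein-coding promoters in both lists. The MAP kinase and serum response factor genes lay above them. By −log10 q the rod, vascular and astrocyte medians were below those of all protein-coding genes. Member promoter regions were 1060 bp wide at the median in the control list, against 927 bp.

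**Figure D1:**
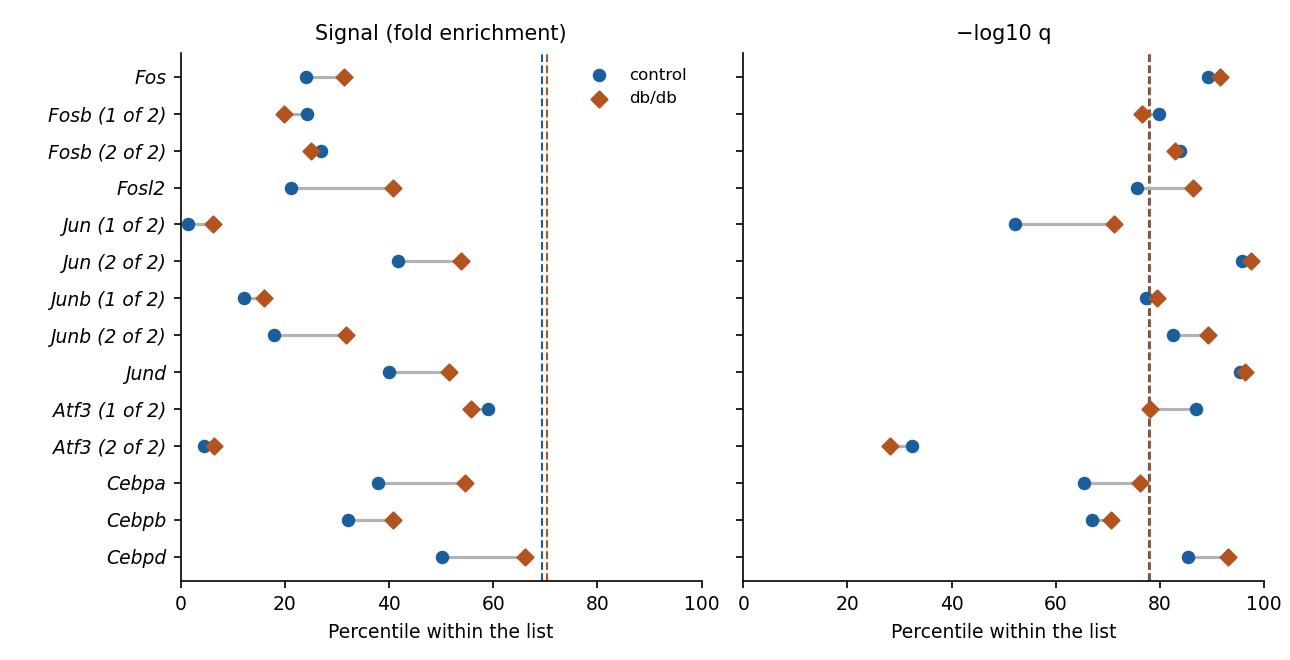
Percentile within each list of the 14 promoter regions of the members, by signal (left) and by −log10 q (right), in the control (circles) and db/db (diamonds) lists; dashed lines give the medians of all regions near a protein-coding TSS. All 14 lie left of the dashed lines by signal, while by −log10 q most lie near or to the right of them, and the second Atf3 region lies lowest at 32.4 and 28.2.

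The flanks and gene bodies held all of the member regions found in 1 list only. Outside promoters there were 41 loci, of which 30 were in both lists, 1 in the control list only and 10 in the db/db list only. The control-only share was 1 of 32 control regions (3.12%, 95% Wilson interval 0.554% to 15.7%), against 5.27% of all such control regions. The db/db-only share was 10 of 40 (25.0%, 14.2% to 40.2%), against 37.5% of all such db/db regions. Over all places the shares were 2.17% (0.385% to 11.3%) of control and 18.5% (10.4% to 30.8%) of db/db regions, where all regions of the lists gave 4.16% and 31.3%. The members' db/db-only shares were thus below the background in value. The interval outside promoters holds the background, and that over all places, where 14 of the 54 db/db regions are promoters, ends just below it. When the db/db list was reduced by −log10 p to the length of the control list, the shares over all places were nearly equal. The db/db-only share was then 8.89% and the control-only share 8.70% of member regions, where all regions gave 13% and 13.1%. Outside promoters they were 12.5% and 9.38%, where all such regions gave 16.6% and 16.5%. The lists of equal numbers held 14 control and 13 db/db promoter regions of members, so that not every promoter region was then shared. All 10 members still had a promoter region in both.

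The rank of shared regions was compared in 43 pairs. The median rank change was -1.57 points (-25.23 to 16.34), with 13 positive and 30 negative values. A rank lower by 10 points or more in the db/db list was seen in 10 of the 43 pairs, against 12.8% of all pairs. A rank higher by 10 points or more was seen in 1 of the 43, against 13.3%. For the 14 promoter pairs the median was -2.98 points (-18.21 to 4.17), against -0.83 points over the 13772 pairs near any protein-coding TSS. Of these 14, 3 were lower by 10 points or more, 2 of them at Fosb. With 1 region per gene, 2 of 10 members were lower by that much, beside 1622 of 12408 protein-coding genes. Ranked over the whole lists, the member medians turned positive, 3.89 points for all pairs and 8 points for promoters, beside the 8.53 points of all pairs. Ranked among pairs by −log10 q in place of signal, the median was -0.63 points for all member pairs, against 0.20 over all pairs, and -0.88 points for member promoters, against -0.91 over promoter pairs. The lower median of the member promoters was therefore seen by signal and not by −log10 q. By window, the 10 lower pairs were 6 of the Fos family, most of them around Fosb, 3 of Atf3 and 1 of Junb. The 1 higher pair belonged to Jund. Some lower pairs lay within 1 kb of starts of other genes: Gm26802 and Rtn2 beside Fosb, Hook2 beside Junb and D730003I15Rik beside Atf3. Their changes of -12.83, -11.60, -18.95 and -25.23 points cannot be assigned to the members.

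**Figure D2:**
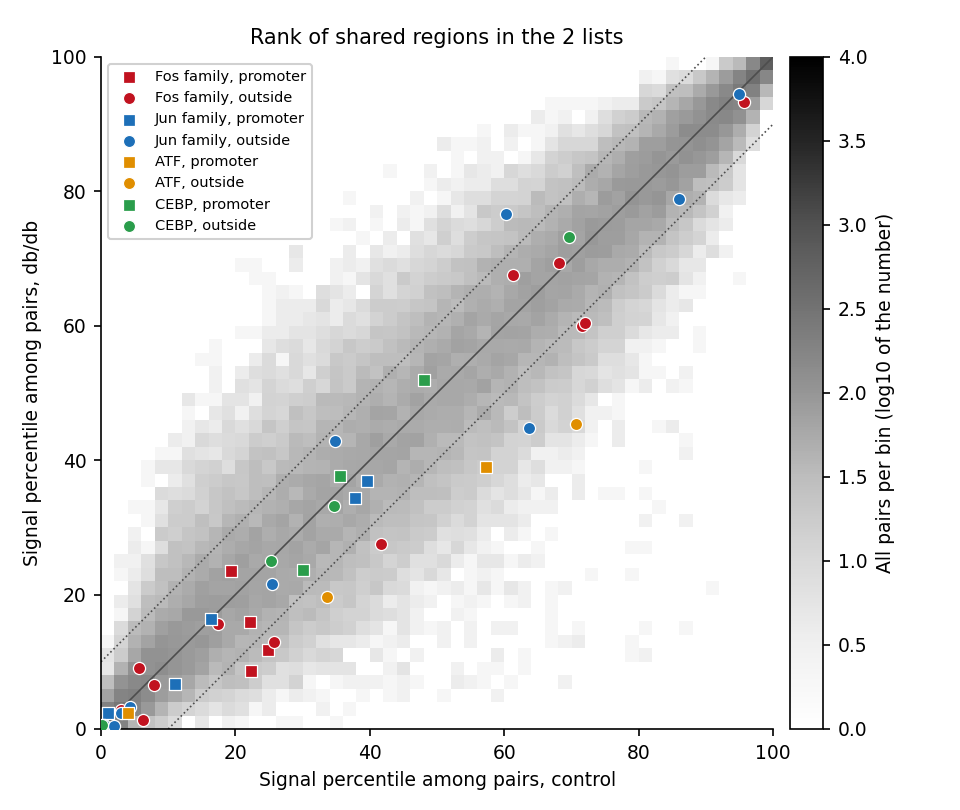
Signal percentile of each shared pair in the control (x axis) and db/db list (y axis), ranked among the 43519 pairs; grey squares show all pairs by number on a log10 scale, and coloured points the 43 member pairs by family, squares for promoters. The solid line marks equal rank and the dotted lines 10 points to each side; 10 member pairs lie below the lower dotted line and 1 above the upper.

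The number of regions around the members varied with the gene. Windows of members held a median of 4 control and 4.5 db/db regions, against 2 and 2 for the 16721 protein-coding genes no longer than Atf3, the longest member. Fosb (10 regions in each list) and Junb (8 and 10) stood highest, at percentiles 99.8 and 98.8 of these genes in the control list and 99.2 in the db/db list. Cebpa stood lowest, with 1 region in each list and percentiles of 35.6 and 30.7. Windows that hold other genes also hold the promoters of those genes, as described for Junb and Fosb below.

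**Figure D3:**
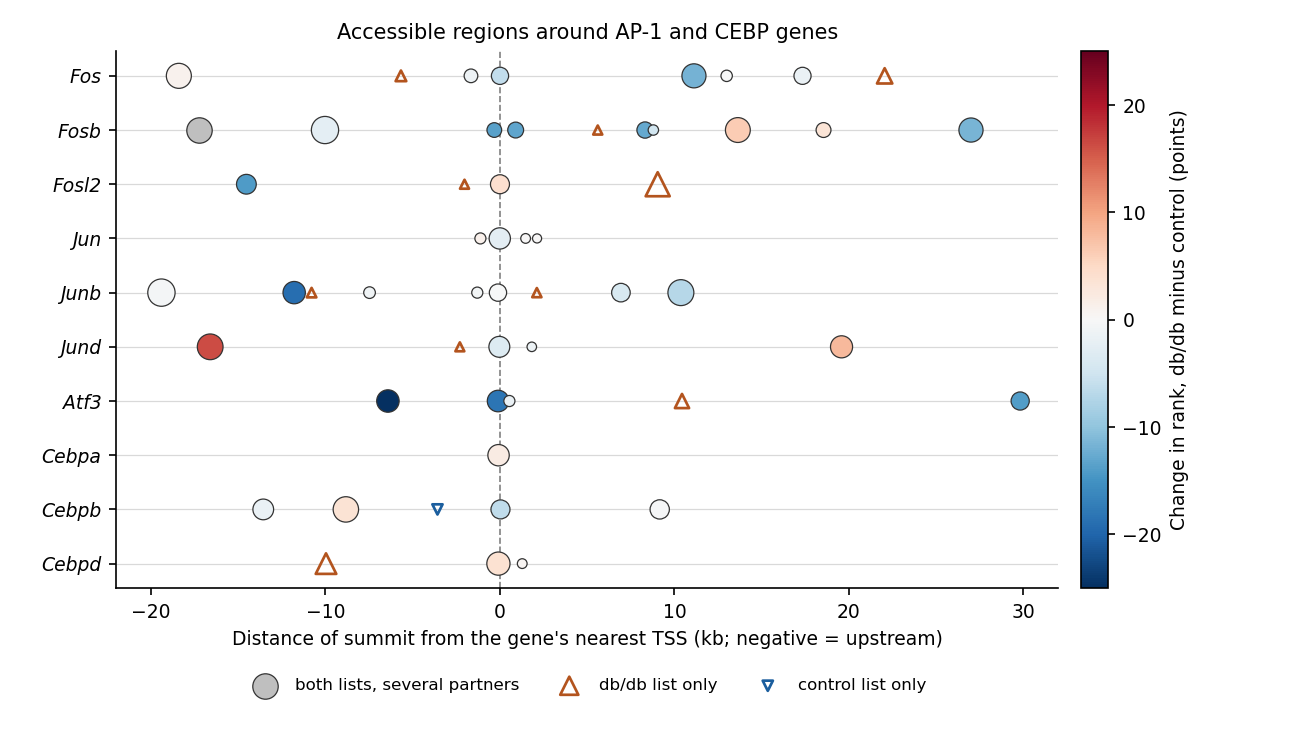
Regions of the 10 members by distance of the summit from the nearest TSS of the gene, in kb along its strand. Circles are regions in both lists, coloured by rank change in points (grey where a region had several partners), upward triangles db/db-only and downward triangles control-only regions; marker area grows with the signal percentile. Blue circles cluster at Fosb and Atf3, and the largest triangle is the Fosl2 region 9.04 kb downstream of a TSS.

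Fos (ENSMUSG00000021250.13), the founding AP-1 partner of Jun and a classical immediate early gene, spans chr12:85473890-85477273. Its promoter region, chr12:85473322-85474815, held 4 summit rows in each list and had its main summit 2 bp into the 5′ UTR. It ranked at 24.0 and 31.4 by signal and at 89.2 and 91.5 by −log10 q, with a rank change of -6.13 points. The Fos promoter was thus a broad region of high −log10 q and modest signal in both lists.

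The flanks of Fos held 7 further loci. The region 18.4 kb upstream (chr12:85454899-85456023) and the one 11.1 kb downstream (chr12:85485705-85486491) were the strongest, at 69.7 and 73.0 in the control list and 78.9 and 72.2 in the db/db list. Their rank changes were 1.04 and -11.74 points. Only the downstream region of this pair passed 10 points. The other shared flanking regions were weak: 1.66 kb upstream (chr12:85471822-85472645) the percentiles were 8.62 and 15.6, 13 kb downstream (chr12:85487463-85488042) they were 3.32 and 7.36, and 17.3 kb downstream (chr12:85492025-85492525) they were 19.0 and 30.9. The db/db list alone held a region 5.67 kb upstream (chr12:85467678-85468363, percentile 5.08) and another 22.0 kb downstream (chr12:85496784-85497139, percentile 22.5). Among db/db regions within 5 points of these 2 percentiles, 69.6% and 59.4% were found in that list only, so that neither stood out for its strength.

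Fosb (ENSMUSG00000003545.3), a Fos relative known in neurons for its lasting truncated product, lies at chr7:19302696-19310051 on the minus strand. Both of its promoter regions ranked lower in the db/db list. The region before the TSS (chr7:19309929-19310594) had percentiles of 24.3 and 19.8 and a rank change of -13.65 points. The region centred 900 bp downstream of a TSS, in a noncoding exon (chr7:19307845-19308993), had 26.9 and 25.0 and a change of -13.16 points. By −log10 q they remained high in both lists, from 76.6 to 83.9. Their changes lay at the 7.79th and 8.32nd percentiles of all pairs.

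The surroundings of Fosb were dense. Upstream, the region 10.0 kb away (chr7:19319405-19320424) was the strongest member region of the control list, at 95.8 and 95.5 (rank change -2.36 points). A region 17.2 kb upstream within the long noncoding RNA gene D830036C21Rik was 1 region in the db/db list and 2 in the control list (chr7:19326285-19327557), at 68.6 for the stronger of them and 81.7, and got no rank change. Inside the gene, the db/db list alone had a weak region in the 3′ UTR (chr7:19303832-19304119, percentile 0.483).

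Downstream of Fosb, 5 regions lay within 20 kb of its end, and 4 of them near the starts of other genes. Beside Gm26802, a long noncoding RNA gene, chr7:19301177-19301445 had 27.8 and 26.9 with a change of -12.83 points, and chr7:19300696-19301095 had 6.90 and 4.25. At starts of Rtn2, which encodes an endoplasmic reticulum protein, chr7:19290913-19291647 had 6.34 and 20.6, and chr7:19282397-19283279 had 73.3 and 72.6 with a change of -11.60 points. The last, inside Rtn2 (chr7:19295666-19296178), ranked at 63.0 and 77.7, a change of 6.28 points. The lower ranks around Fosb were thus found at its own promoter and at neighbouring starts, while the stronger upstream regions changed by less than 10 points or were not ranked.

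Fosl2 (ENSMUSG00000029135.10) encodes FRA2, a Fos relative without the strong activation domain of FOS, and spans chr5:32135801-32157842. Its promoter region (chr5:32134955-32136153) had its summit at a TSS and ranked at 21.2 and 40.7, with the most positive promoter change of the members, 4.17 points. The region 14.5 kb upstream (chr5:32120816-32121750) had 43.9 and 44.9 and a change of -14.18 points.

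A region in the 3′ UTR of Fosl2, chr5:32154921-32155850, was listed for db/db alone. This region was 930 bp wide with 3 summit rows, ranked at 71.8 by signal and 62.9 by −log10 q, and the nearest control region lay 18.8 kb away. Of the 6488 db/db regions within 5 points of this rank 7.71% were found in the db/db list only, and of the 20324 db/db-only regions 459 ranked as high or higher. It was by rank the strongest of the members' 10 db/db-only regions. The other db/db-only region of Fosl2, 2.03 kb upstream near the start of Gm10463 (chr5:32133635-32133880), ranked at 0.352.

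Jun (ENSMUSG00000052684.4), the core AP-1 subunit and a target of JUN N-terminal kinases, lies at chr4:95049034-95052222 on the minus strand. All 4 of its regions were in both lists. The main promoter region, chr4:95051417-95053026, had its summit 11 bp upstream of the TSS and ranked at 41.7 and 53.9 by signal and at 95.7 and 97.4 by −log10 q, the highest −log10 q ranks among member promoters. Its rank change was -2.56 points. The start of the antisense gene Junos lies inside the same region, so that the 2 starts cannot be told apart here.

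The other regions of Jun were among the weakest by signal. A second promoter region 1.12 kb upstream (chr4:95053127-95053523) had 1.33 and 6.31, a region in the coding exon (chr4:95050586-95050911) had 0.627 and 2.41, and one in the 3′ UTR (chr4:95049973-95050187) had 0.0704 and 0.693. Their rank changes lay between 0.09 and 1.22 points. Jun is an intronless gene, and its regions lay from upstream of the promoter to the 3′ UTR.

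Junb (ENSMUSG00000052837.6), a Jun protein that often restrains JUN, lies at chr8:84974484-84978718 on the minus strand among closely packed genes. Its promoter region at the outer TSS (chr8:84978386-84979051) had 12.2 and 16.1 with a rank change of -4.31 points. The promoter region at the inner TSS (chr8:84976185-84976861) had 18 and 31.8 with a change of -0.05 points. Its summit lay inside the annotated span of the gene but in no annotated exon. Neither passed 10 points.

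Upstream of Junb, the region 11.8 kb away at a start of Hook2 (chr8:84989853-84991086), which encodes a microtubule linker, had 65.4 and 60.6 and a rank change of -18.95 points. This was the second most negative change among the member pairs, but it cannot be assigned to Junb. At another start of Hook2, 19.4 kb upstream (chr8:84997766-84998482), the percentiles were 95.2 and 96.2, with a change of -0.48 points. Weak shared regions lay 7.47 kb (chr8:84985702-84986515, 4.88 and 8.33) and 1.3 kb upstream (chr8:84979732-84980347, 3.41 and 6.50). A db/db-only region of percentile 1.71, also near Hook2 (chr8:84989357-84989673), lay 0.18 kb from the nearest control region. Only 1 of the upstream regions of Junb passed 10 points.

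Downstream of Junb, chr8:84965776-84966368 near a start of Rnaseh2a, a subunit of ribonuclease H2, had 86.8 and 85.6 (rank change -7.14 points). The region near the starts of Prdx2, Rnaseh2a and Gm49661 (chr8:84969291-84969990) had 27.6 and 38.4 (-4.05 points). A db/db-only region of percentile 0.830 (chr8:84974305-84974522) lay 2.11 kb downstream of the inner TSS. The strong regions around Junb were therefore at the starts of neighbouring genes.

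Jund (ENSMUSG00000071076.6), the Jun protein with the steadiest expression, spans chr8:70698949-70700616. Its promoter region (chr8:70698296-70699479) ranked at 40 and 51.6 by signal and at 95.3 and 96.3 by −log10 q, with a rank change of -3.39 points. The region 16.6 kb upstream (chr8:70682091-70682936) had 62.0 and 84.0, and its change of 16.34 points was the only one of the members above 10. By −log10 q it stood at 41.5 and 74.5. The region 19.6 kb downstream at the start of Gm3336 (chr8:70718355-70718776) had 37.0 and 59.0, a change of 8.04 points. The 2 outer regions of the Jund window thus had the 2 most positive rank changes among the member pairs.

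Closer to Jund, chr8:70700554-70700921 just downstream, near the start of Gm11175, had 2.19 and 1.82 (rank change -1.45 points). The db/db list alone held chr8:70696565-70696762, 2.30 kb upstream, at percentile 0.153, the weakest member region of that list. Gm11175 is annotated antisense to Jund.

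Atf3 (ENSMUSG00000026628.13), a stress-induced factor that pairs with Jun proteins, spans chr1:191170296-191218039 on the minus strand. Among the members, Atf3 had the most negative rank change in its window. The region 6.42 kb upstream of its outermost TSS, at the start of the long noncoding RNA gene D730003I15Rik (chr1:191223925-191225220), ranked at 72.0 and 61.1, and its rank change of -25.23 points lay at the 1.69th percentile of all pairs. The promoter region at an inner TSS (chr1:191182919-191183899), the one that holds the sequence shown above, had 59.0 and 55.7 and a change of -18.21 points, at the 4.14th percentile of all pairs. Beyond the end of the gene, 29.8 kb from a TSS, chr1:191152990-191153421 had 35.8 and 36.2 and a change of -13.88 points.

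The remaining regions of Atf3 were weak. A second promoter region 540 bp downstream of that TSS (chr1:191182393-191182826) had 4.56 and 6.48 with a change of -1.67 points, and an intronic region in the db/db list only (chr1:191172564-191172803) had 17.6. By −log10 q the main promoter region also stood lower in the db/db list, at 86.9 and 78.0. Rank changes were negative in all 4 pairs of the Atf3 window (median -16.05 points), including the one at the start of D730003I15Rik. The 7 CEBP pairs had a median of 0.56 points and none past 10. The Fos family had a median of -3.60 points over 16 pairs and the Jun family -0.89 points over 16. Each of these medians also includes pairs within 1 kb of starts of other genes. With 1 list per genotype, differences among the families were not tested.

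Cebpa (ENSMUSG00000034957.10), a factor of differentiation in liver, fat and myeloid cells, spans chr7:35119293-35121928. The whole window held 1 locus, the promoter (chr7:35118036-35119685), at 37.8 and 54.5 with a rank change of 2.04 points. It was the widest member region, 1650 bp in the control list, and the antisense gene Gm45091 starts inside it. No flanking region was found within 20000 bp in either list.

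Cebpb (ENSMUSG00000056501.3), a factor of inflammatory and metabolic gene control, spans chr2:167688915-167690418 inside the annotated span of Tmem189. Its promoter region (chr2:167688568-167689358) had 32.2 and 40.8 with a rank change of -6.41 points. The start of Tmem189 lies within 1 kb. The regions 13.6 kb (chr2:167675129-167675517) and 8.83 kb upstream (chr2:167679893-167680436), both inside Tmem189, had 36.9 and 71.0 in the control list and 50.5 and 81.7 in the db/db list, and the region 9.16 kb downstream (chr2:167697870-167698286), inside the noncoding gene A530013C23Rik, had 27.3 and 42.3. Their changes lay between -1.57 and 3.59 points.

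The region 3.58 kb upstream of Cebpb (chr2:167685195-167685449) was the only member region found in the control list alone. It was 255 bp wide and ranked at 3.68. Of the 4009 control regions within 5 points of that rank 11.0% were found in the control list only. Around Cebpb no shared region passed 10 points.

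Cebpd (ENSMUSG00000071637.5), an acute-phase factor induced by cytokines and glucocorticoids, spans chr16:15887286-15891031. Its promoter region (chr16:15886641-15888241) ranked at 50.1 and 66.2 by signal and 85.3 and 93 by −log10 q, with a rank change of 3.84 points. A region in the 3′ UTR, where Spidr is also annotated (chr16:15889588-15889899), had 0.181 and 2.46. The db/db list alone held a region 9.97 kb upstream (chr16:15877199-15877437, 239 bp, percentile 49.6). Among db/db regions within 5 points of it 28.8% were found in that list only, and the nearest control region lay 9.20 kb away.

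Related genes were taken from lists by function. Of 18 other AP-1 and ATF genes, 16 had a promoter region in both lists. Of 15 ranked pairs, 5 were lower by 10 points or more and none higher. Batf2 had the most negative change (-25.38 points), followed by Mafg (-17.63) and Atf6 (-17.52). The promoter of Batf3, a dendritic cell factor, was in the db/db list only, at percentile 56.8, and Batf had none. Of the 3 other CEBP genes, Cebpg and Ddit3 had a promoter region in both lists and Cebpe, a granulocyte factor, had none. Ddit3, which encodes CHOP of the stress response, had a change of -15.54 points, and Cebpg one of -3.13 points.

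Of 13 MAP kinase and serum response factor genes upstream of AP-1, 12 had a promoter region in both lists, and Mapk11 had none. Of 11 ranked pairs 2 were lower by 10 points or more, Srf (-16.77 points) and Mapk10 (-10.12 points). Of 19 other immediate early genes, 18 had a promoter region in both lists, and that of Egr3 was in the db/db list only, at percentile 5.31. Of 16 pairs, Btg2 (-21.29 points) and Gadd45g (-11.90 points) were lower by 10 points or more, beside 1622 of 12408 protein-coding genes.

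None of the ranked promoters in these lists was higher by 10 points or more. The median changes were -4.33 points for the AP-1 and ATF genes, -4.36 for the immediate early genes, -1.79 for the upstream genes, -9.34 for the 2 ranked CEBP relatives and -2.98 for the members, against -1.23 over 12408 protein-coding genes, of which 696 were higher and 1622 lower by 10 points or more.

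**Figure D4:**
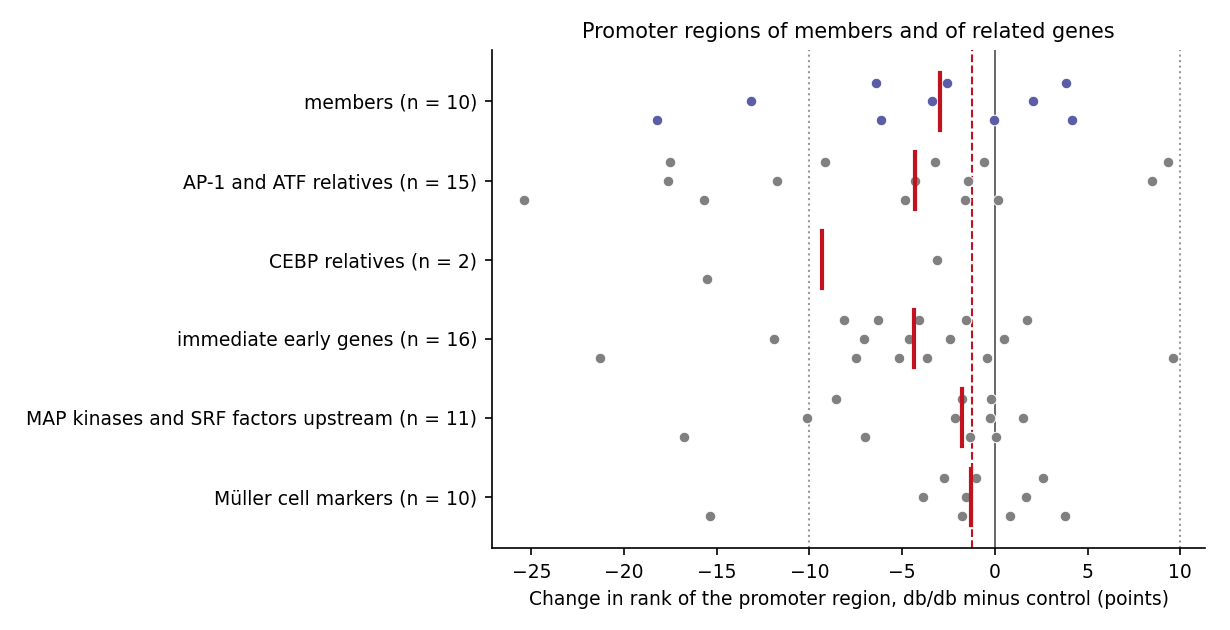
Rank change of the promoter region of highest signal, db/db minus control, for each gene of the members and related lists (points), with the list median as a red bar; n is the number of genes ranked. The dashed line is the median over all protein-coding genes (-1.23 points) and dotted lines mark 10 points; points left of the lower dotted line include Atf3 and Fosb among the members.

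The label of the cells was set against marker promoters. All 10 Müller cell markers had a promoter region in both lists, while 9 of 10 microglia markers (all but P2ry12) had none in either list. Promoter regions were listed for 9 rod markers in the control and 7 in the db/db list, with Pde6b and Cnga1 in the control list only and Pde6a in neither, for 5 of 10 vascular markers in each (Pecam1, Cdh5, Cldn5, Tie1 and Rgs5 in neither) and for 3 of 5 astrocyte markers in each (Pax2 and Gjb6 in neither). The rod promoters listed had a median −log10 q percentile of 57.0 in the control and 28.2 in the db/db list. For Crx, a photoreceptor transcription factor, the strongest promoter region of each list ranked by signal at 80.3 in the control and 1.85 in the db/db list. These Crx regions were not a pair with a single partner each way, may lie at different places, and got no rank change. The part of rod, vascular or astrocyte chromatin in the members' values was not tested.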

How the data were processed

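ATAC-seq of Müller cells gave 1 peak list per genotype (81757 control and 109995 db/db rows). For each row the authors deposited a score (540 to 1000), a signal given as a ratio (fold enrichment), and the significance as −log10 of p and of q, with −log10 p at least 2.00. The study names csaw and monaLisa for its own analysis; the peak caller, its threshold and any pooling of replicates are not given in the sources used here. Read depths were not analysed here, so how far depth sets the length of a list is unknown.

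Overlapping rows were merged, keeping the row of highest signal. Regions were shared from 1 bp of overlap. A promoter region overlaps the 1000 bp to either side of a TSS of GENCODE M21 (GRCm38). Percentiles were taken within a list, and rank changes among regions with a single partner. Intervals of shares are 95% Wilson intervals for counting error. Strings were searched in RefSeq promoter sequences (GRCm38.p6); sequence around distal summits was not used here. Python 3.11.15, numpy 2.4.6, pandas 2.3.3, scipy 1.17.1 and matplotlib 3.10.9 were used, and the merging, sharing and ranking steps were tested on simulated data.

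With 1 list per genotype no test was run. The members, lists and strings were chosen with earlier results of these data known. Named genes were all members, genes of the lists with a promoter region in 1 list only or changed by 10 points or more (at most 4 per list), marker genes with no promoter region, genes with a TSS within 1 kb of a listed region, and the 5 genes outside the lists nearest in promoter rank to the member that changed most. Mapk11, Batf, Cebpe, Cebpg, Crx, other ranked markers and genes overlapping a summit were named beyond this rule, after their values were seen. The value of 1 gene that the rule names is not reported here. Alternatives were unmerged rows, −log10 q of at least 5, lists of equal numbers, 50% overlap, windows of 5000 and 50000 bp, promoters of 250 bp, ranks by −log10 q and sequence before the start only.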

Additional observations from a re-analysis of the deposited data

How the results depend on the processing

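Of 87 recomputed values, 77 stayed close: counts within 1.5 times, shares within the reported 95% interval, median rank changes within the SD of pairs, and count percentiles within 10 points. The intervals are wide, so that shares within them could still differ several times. Without merging, the members had 79 control and 93 db/db rows. Windows of 5000 bp gave 24 and 29 regions and windows of 50000 bp gave 81 and 100. With lists of equal numbers, the db/db-only share was 8.89% of all member regions and 12.5% of those outside promoters, and the control-only shares were 8.70% and 9.38%, from 2.17% and 3.12%. Windows of 5000 bp gave one-list shares outside promoters of 10% in the control and 40% in the db/db list. Ranks by −log10 q gave median changes of -0.63 points for all member pairs and -0.88 points for promoters. Ranked over the whole lists, a choice added after seeing the data, the median change was 8 points for promoter pairs and 3.89 points for all member pairs, since the db/db list holds more weak regions. Before the start site only, 2 members had the TATA box. No paired analysis was possible because each genotype has a single list and nothing was tested. Differences between genotypes and between these 2 lists cannot be told apart, and read depth was not analysed here.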

Other observations

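The 5 protein-coding genes outside all lists whose promoter ranks were nearest to those of Atf3 (57.2 in control and 39.0 in db/db, ranked among pairs) were Zfp493, Bri3, Casz1, Elmod3 and Retsat. Their distances from Atf3 were 0.665 to 1.35 points over the 2 lists, among 12408 genes compared. Elmod3 and Retsat had the same ranks (55.9 in control and 39.2 in db/db), and whether they share a promoter region was not examined. Among the Müller cell markers, the promoter of Glul, which encodes glutamine synthetase, was the only one past 10 points, with a rank change of -15.35 points. Of the 3 rod markers ranked, Sag had -31.01 points, Rcvrn -9.65 and Nr2e3 -0.97. Of the 5 vascular markers Esam had 13.06 points and the list a median of -1.96, and of the 3 astrocyte markers Aldoc had -12.35 points, Gfap 0.39 and S100b 3.70.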
